A study of Mus musculus with 10 samples.

Results

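Hoxa5, Hoxb5, Hoxc5, Hoxa6, Hoxb6 and Hoxc6 are the mouse Hox genes of paralogue groups 5 and 6, 6 of the 39 Hox genes among the 52636 gene identifiers counted. They were chosen by gene symbol alone, and all 6 symbols matched 1 identifier each. Gene expression was measured by RNA sequencing in E14, a line of mouse embryonic stem cells, with 2 libraries of unedited cells (WT) and 2 of cells from which 1 site bound by CTCF, a protein that shapes chromatin loops, had been removed (CBE-KO). All 4 libraries came from cells given retinoic acid at a labelled dose of 2 µM for 24 h, in medium without LIF and the kinase inhibitors that hold these cells in self-renewal. No untreated cells entered the comparison, so a level in WT is a level under retinoic acid. The study's title places the element beside enhancers that contact the HoxA cluster, and the comparison asks how gene expression differs when it is missing. The design text calls the replicates biological. The labels do not say whether they were separate cultures or how many clones CBE-KO represents. The p-values therefore speak only of the spread between these libraries, which edgeR estimated mostly over all tested genes together.

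Hox genes encode homeodomain transcription factors that give cells positional identity along the head-to-tail axis. They stand in 4 clusters, HoxA to HoxD, and genes at the same place in different clusters, called paralogues, descend from 1 ancestral gene. Retinoic acid activates the clusters in order, from the genes of the hindbrain towards those of the trunk and tail, through receptors that bind DNA repeats. Groups 5 and 6 lie in the middle of this order and pattern the neck and upper trunk, and the HoxD cluster has no member of either group. Hoxa5 is known for its part in lung and neck development, Hoxb5 in the enteric nervous system and blood progenitors, and Hoxc6 in thoracic identity and motor neurons.

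In the GRCm38.p6 annotation of RefSeq, which shares its build with the mm10 of the submitters' processing notes, Hoxa5 spans chromosome 6 from 52201754 to 52204587 and Hoxa6 from 52204858 to 52208672. The gap between them is 270 bases. Hoxb6 spans chromosome 11 from 96292814 to 96301569 and Hoxb5 from 96303512 to 96306121. Hoxc6 spans chromosome 15 from 102998226 to 103011882 and Hoxc5 from 103014008 to 103017429. Several spans overlap other genes. All of Hoxa5 and Hoxa6 lies within the span of Hoxa3 and within that of the noncoding gene Hoxaas3, and all of Hoxb5 and Hoxb6 lies within that of the noncoding gene Hoxb5os. These are spans of whole genes, and overlap of their exons was not checked. The sources used here do not say whether counting used strand. How reads in shared stretches were assigned or dropped is therefore not known, although each gene has its own counts.

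The RefSeq promoter table held 2 of the 6 genes, Hoxa5 and Hoxa6. Their promoters are shown because these neighbours in the cluster named in the study's title gave different calls. Each window runs 5′ to 3′ on the minus strand of GRCm38.p6, from 250 bases before the start of the gene to 50 bases after it, at chr6:52204538-52204837 for Hoxa5 and chr6:52208623-52208922 for Hoxa6. Capitals mark matches to AGGTCA, a half-site of retinoic acid receptors, and to CCAAT, the CCAAT box, which appears as its reverse complement.
Hoxa5: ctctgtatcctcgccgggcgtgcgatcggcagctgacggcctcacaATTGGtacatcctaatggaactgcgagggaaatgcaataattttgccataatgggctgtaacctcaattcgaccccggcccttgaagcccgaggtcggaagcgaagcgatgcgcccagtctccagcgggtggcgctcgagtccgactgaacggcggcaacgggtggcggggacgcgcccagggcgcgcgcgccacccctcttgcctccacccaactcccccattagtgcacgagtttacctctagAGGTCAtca
Hoxa6: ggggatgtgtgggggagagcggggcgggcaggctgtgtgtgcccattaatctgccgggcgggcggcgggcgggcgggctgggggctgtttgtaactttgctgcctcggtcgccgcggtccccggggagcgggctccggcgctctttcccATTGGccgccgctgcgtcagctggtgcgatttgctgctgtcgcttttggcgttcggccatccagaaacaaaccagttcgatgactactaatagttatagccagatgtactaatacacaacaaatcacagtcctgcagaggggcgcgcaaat
Both windows are rich in G and C, at 61.7% for Hoxa5 and 62.0% for Hoxa6. AGGTCA was searched on both strands and occurred once in the Hoxa5 window, at bases 42 to 47 after the start, and 0 times in that of Hoxa6. It occurred in 16.3% of the 32851 promoter windows of the table. CCAAT occurred once in each window and in 37.4% of all windows. A direct repeat of AGGTCA with a spacer of 5 bases had 0 matches in both windows and was found in 0.00913% of all windows. The same held for the Cdx motif TTTATG (11.9% of all windows), for the TATA box TATAAA (13.6%) and for a core of the CTCF motif, CC and AGGGGGC separated by 3 bases (1.28%). These motifs do not overlap each other in the windows shown. The motifs were chosen after expression values had been seen, and a match describes letters in a window, not a bound site.

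The libraries held 14108038 to 15632960 counts, so that 3 counts, the lowest level treated as measurable, corresponded to 0.192 to 0.213 CPM by library totals. CPM is the usual count unit relative to library size, and levels of genes are given in it after TMM scaling. Ctcf itself did not pass the test (-0.05 ± 0.05 on the log2 scale, SE; edgeR adjusted p = 0.472). The lines differed in more than the labelled deletion: the Y-linked genes Ddx3y, Eif2s3y and Uty had 0 to 6 counts in each WT library and 267 to 920 in each CBE-KO library, while Kdm5d, also Y-linked, had 1 and 0 counts against 4 and 7. Effects of the deletion and of other differences between the lines cannot be told apart in this design. Pluripotency genes were abundant in both groups, at a summed 4490 to 4680 CPM over 9 markers in WT against 3400 to 3440 in CBE-KO. Of the 8 tested, 6 fell and 1 rose, where 21.5% of all tested genes fell. Some markers of other lists were tested only through CBE-KO. They are left out of the counts that follow but not of the summed levels, which cover each whole list. As background for these counts, 14754 genes were above the expression filter of 0.679 CPM in both WT libraries. Of those genes 3043 rose and 3434 fell, and of all tested genes 21.6% rose. Among 4 neuroectoderm markers 2 rose and 1 fell, with summed levels of 99.8 to 110 CPM in WT and 104 CPM in both CBE-KO libraries. Of the others, 0 of 3 rose for mesoderm (summed 5.34 to 5.38 against 5.79 to 6.80 CPM), 1 of 4 for definitive endoderm (65.8 to 68.9 against 77.1 to 78.8 CPM) and 3 of 4 for extraembryonic endoderm (252 against 262 to 263 CPM). Of 3 tested trophoblast markers 0 passed (summed 3.94 to 5.00 CPM over the 4 libraries), and of 3 fibroblast markers 1 rose and 1 fell (209 to 211 against 162 to 167 CPM). No marker in these lists was at 0 in every library. The part of these markers in the Hox values was not tested, and in bulk RNA fewer expressing cells and less RNA per cell cannot be told apart.

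Of the 6 genes, 4 rose in CBE-KO (Hoxa5, Hoxc5, Hoxb6 and Hoxc6), 0 fell and 2 did not pass edgeR's quasi-likelihood test at an adjusted p under 0.05. Over all 16005 genes tested, 21.6% rose and 21.5% fell, 43.1% in all. DESeq2 called the same 4 of the 6, all higher, where 12.8% of all genes rose and 15.8% fell, 28.6% in all. The median log2 fold change was 1.04 over the 6 genes and 0.01 over all genes. The first of these medians includes Hoxc5 and Hoxc6, whose entry into the test favours a high value. Without them the values were 1.22 for Hoxa5, -0.24 for Hoxb5, 0.87 for Hoxa6 and 0.47 for Hoxb6. All 6 entered the test, but Hoxc5 and Hoxc6 did so only through their CBE-KO libraries. In both WT libraries 4 of the 6 were above the expression filter of 0.679 CPM, and 2 of those 4 passed, both higher. Of all 14754 genes above that filter in both WT libraries, 3043 rose and 3434 fell. With only 4 genes, an excess of calls over this background cannot be judged, and it was not tested. CPM of the groups did not overlap for 5 of the 6 genes, Hoxc5 and Hoxc6 among them, all 5 higher in CBE-KO. Of all tested genes, 36.5% were separated upwards and 33.9% downwards, 70.4% in all.

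**Figure D1:**
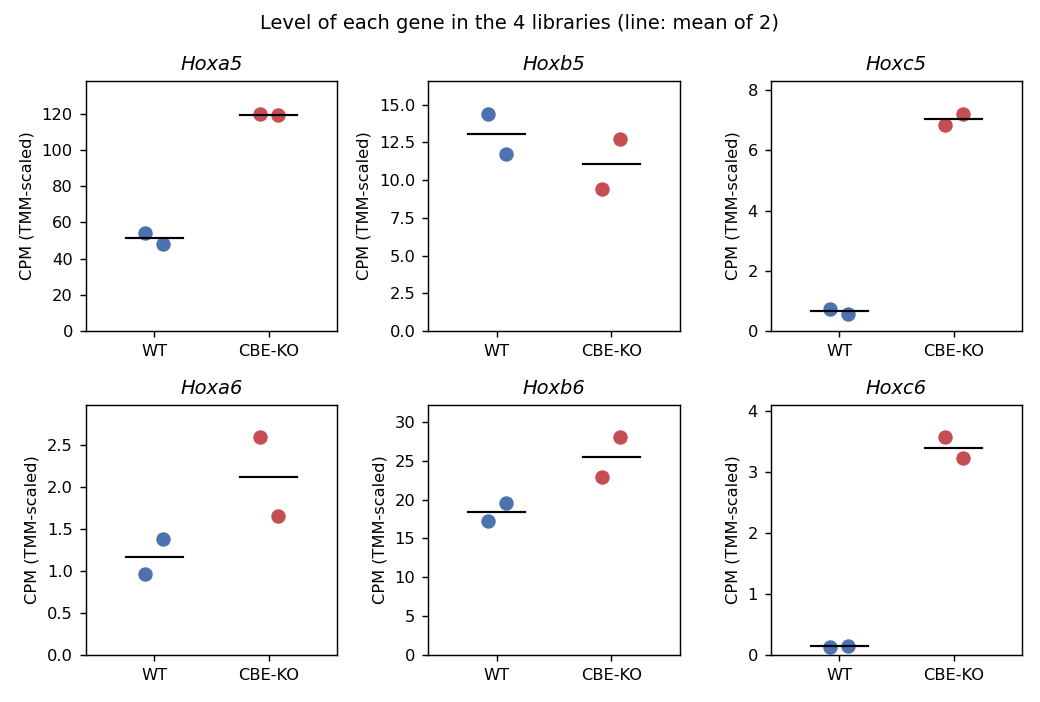
TMM-scaled CPM (vertical axis, own scale from 0 in each panel) of the 6 genes in the 2 WT and 2 CBE-KO libraries, with the mean as a line. Points of the groups overlap only for Hoxb5; Hoxc5 goes from 0.667 to 7.03 CPM and Hoxc6 from 0.141 to 3.40 CPM on average.

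In group 5, the HoxA gene rose, the HoxB gene did not pass, and the HoxC gene rose from a level near the filter. Hoxa5 (ENSMUSG00000038253) stood at 54.3 and 48.3 CPM in WT against 120 and 119 CPM in CBE-KO, from 793, 664, 1945 and 1726 counts. Both CBE-KO libraries were far above both WT libraries, and the CBE-KO pair lay closer together than the WT pair. The fold change was 2.32 (95% interval 2.12 to 2.55; 1.22 ± 0.06 on the log2 scale, SE; edgeR adjusted p = 1.07e-10).

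Hoxb5 (ENSMUSG00000038700) stood at 14.4 and 11.7 CPM in WT against 9.43 and 12.7 CPM in CBE-KO. The second CBE-KO library fell between the WT libraries, so the groups overlapped. Its difference of -0.24 ± 0.16 on the log2 scale (SE; edgeR adjusted p = 0.243) did not pass, and the 95% interval of its fold change, 0.668 to 1.07, leaves out a rise of the size seen for Hoxa5. This call rested on 1 library: without CBE-KO replicate 2 the log2 fold change was -0.47 and passed (edgeR adjusted p = 0.0347), and without CBE-KO replicate 1 it was -0.04. Hoxb5os, whose span covers Hoxb5, had 4 and 3 counts in WT against 12 and 10 in CBE-KO, few beside the 153 to 210 counts of Hoxb5.

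Hoxc5 (ENSMUSG00000022485) had 11 and 8 counts in WT against 111 and 105 in CBE-KO, or 0.753, 0.582, 6.84 and 7.22 CPM. The groups were separated by a wide margin and each pair was close. The fold change was 10.4 (95% interval 6.82 to 15.8; 3.37 ± 0.29 on the log2 scale, SE; edgeR adjusted p = 5.57e-08). Counting error alone, on 19 counts summed over WT and 216 over CBE-KO, gave a ratio of 10.5 with a 95% interval of 6.55 to 17.7. Intervals of this kind hold nothing but counting error, as no molecular identifiers are named in the labels and copies of 1 molecule may be counted more than once.

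In group 6 the HoxB gene rose, the HoxA gene did not pass, and the HoxC gene rose from below the measurable level. Hoxa6 (ENSMUSG00000043219) had 14 and 19 counts in WT against 42 and 24 in CBE-KO, or 0.958, 1.38, 2.59 and 1.65 CPM. The groups did not overlap, but the CBE-KO libraries lay far apart, the lower of them just above the higher WT library. Its fold change of 1.82 (95% interval 1.06 to 3.14; 0.87 ± 0.37 on the log2 scale, SE) did not pass (edgeR adjusted p = 0.0685), so a rise was not established at this depth. The adjusted p ran from 0.0370 with library totals alone to 0.523 without CBE-KO replicate 1, where the log2 fold change was 0.50. Without CBE-KO replicate 2 or WT replicate 2 it was 1.14 in each case and passed (edgeR adjusted p = 0.0426 and 0.0474).

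Hoxb6 (ENSMUSG00000000690) stood at 17.2 and 19.6 CPM in WT against 22.9 and 28.0 CPM in CBE-KO, from 251, 270, 371 and 408 counts. The higher WT library stayed below the lower CBE-KO library. The fold change was 1.38 (95% interval 1.17 to 1.63; 0.47 ± 0.12 on the log2 scale, SE; edgeR adjusted p = 0.00336). It passed under all 11 alternatives tried, with the adjusted p highest, at 0.0468, without CBE-KO replicate 2, where the log2 fold change was 0.31.

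Hoxc6 (ENSMUSG00000001661) had 2 counts in each WT library, below the measurable level, against 58 and 47 in CBE-KO, or 3.57 and 3.23 CPM. With 4 counts in all of WT and 105 in CBE-KO, the ratio was 24.2, with a 95% counting interval of 9.17 to 90.4. The fit gave 4.51 ± 0.47 on the log2 scale (SE; edgeR adjusted p = 7.31e-07), a value that depends on how the fit treats low counts. What is shown is a clear signal in both CBE-KO libraries and almost none in either WT library.

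**Figure D2:**
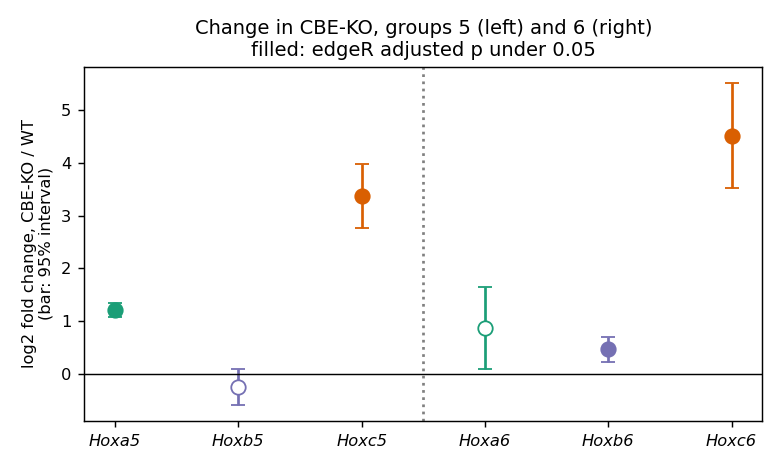
Log2 fold change of CBE-KO over WT (vertical axis) with its 95% interval from the edgeR fit, for the group 5 genes on the left and the group 6 genes on the right; filled points passed. The HoxC genes stand highest in both groups, at 3.37 and 4.51, and Hoxb5, at -0.24, is the 1 point below 0. Both HoxC genes entered the test only through CBE-KO, which favours a high value. Hoxc6 had 2 counts in each WT library, so the size of its value is not read.

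To compare paralogues without depending on how libraries were scaled, the log2 ratio of 2 genes was taken within each library and compared between groups for 9 pairs. With 2 libraries against 2, an exact two-sided permutation test cannot give a p below 0.333 (0.428 after Benjamini-Hochberg adjustment over the 9 pairs), and 7 pairs, whose ratios did not overlap between groups, reached that value. The remaining 2 pairs had an exact permutation p of 0.667. The difference between 2 genes' log2 fold changes is therefore given with its 95% interval from the fit, which treats the genes as independent. It excluded 0 for 2 of the 4 pairs without Hoxc5 and Hoxc6. Of the 5 pairs with 1 or both of these genes it excluded 0 for 4, but their entry into the test only through CBE-KO favours such a difference, so those values are given as descriptions.

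In group 5 the log2 ratio of Hoxb5 to Hoxa5 was -1.91 and -2.04 in WT and -3.66 and -3.22 in CBE-KO, and the log2 fold change of Hoxb5 was lower than that of Hoxa5 by a difference of -1.46 (95% interval -1.82 to -1.10). The fitted rise of Hoxc5 exceeded that of Hoxa5 by 2.16 on the log2 scale (1.54 to 2.78). Against Hoxb5 the excess of Hoxc5 was 3.62 (2.92 to 4.31). Of these 3 pairs, the one of Hoxa5 and Hoxb5 is free of the choice made by the filter.

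In group 6, Hoxc6 had 2 counts in each WT library, so its ratios to Hoxa6 and Hoxb6 in WT rest on a level below the measurable one and no size of difference is read from them. Hoxa6 and Hoxb6 were not distinguished: the difference of Hoxb6 from Hoxa6 was -0.40, with a 95% interval of -1.22 to 0.42 that allows either to have risen more.

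Neighbours within a cluster were compared in the same way. In HoxA the difference of Hoxa6 from Hoxa5 was -0.35 (95% interval -1.14 to 0.44), and the within-library ratios overlapped. In HoxC the difference of Hoxc6 from Hoxc5 was 1.14 (-0.03 to 2.31), again against 2 counts of Hoxc6 in each WT library, and the ratio change of 0.95 became 0.51 when 2 counts in place of 0.5 were added before taking logs. In HoxB the interval from the fit excluded 0: Hoxb6 exceeded Hoxb5 by 0.71 (0.29 to 1.13). Their log2 ratio went from 0.26 and 0.74 in WT to 1.27 and 1.14 in CBE-KO. Leaving out 1 library gave a ratio change of 0.46 to 0.95.

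The same counts can be read as the share that each cluster supplied to its paralogue group in each library. These shares compare libraries, not genes, because counts were not corrected for transcript length. Their binomial intervals hold counting error alone. An exact permutation test of each share between the groups gave p = 0.333, the lowest possible, for every gene but Hoxa6. Summed over group 5, the level was 65.0 ± 6.25 CPM in WT against 137 ± 1.73 CPM in CBE-KO (SD, n = 2 each; ratio 2.11; exact permutation p = 0.333). Hoxa5 supplied 78.2% and 79.7% of group 5 counts in WT against 88.0% and 85.6% in CBE-KO. Hoxb5 supplied 20.7% (exact 95% binomial interval 18.3 to 23.3) and 19.3% (16.7 to 22.2) in WT but 6.93% (5.90 to 8.07) and 9.18% (7.95 to 10.5) in CBE-KO. The share of Hoxb5 thus dropped by 12.0 percentage points while its own CPM did not pass the test. Hoxc5 went from 1.08% and 0.960% to 5.02% and 5.21%.

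Summed over group 6, the level was 19.7 ± 2.04 CPM in WT against 31.0 ± 2.76 CPM in CBE-KO (SD, n = 2 each; ratio 1.57; exact permutation p = 0.333). Hoxb6 supplied 94.0% and 92.8% of group 6 counts in WT against 78.8% and 85.2% in CBE-KO, a lower share although its own CPM rose. Hoxc6 went from 0.749% (0.0908 to 2.68) and 0.687% (0.0833 to 2.46) to 12.3% (9.48 to 15.6) and 9.81% (7.30 to 12.8). Hoxa6 had 5.24% and 6.53% in WT and 8.92% and 5.01% in CBE-KO, and its groups overlapped (exact permutation p = 1).

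**Figure D3:**
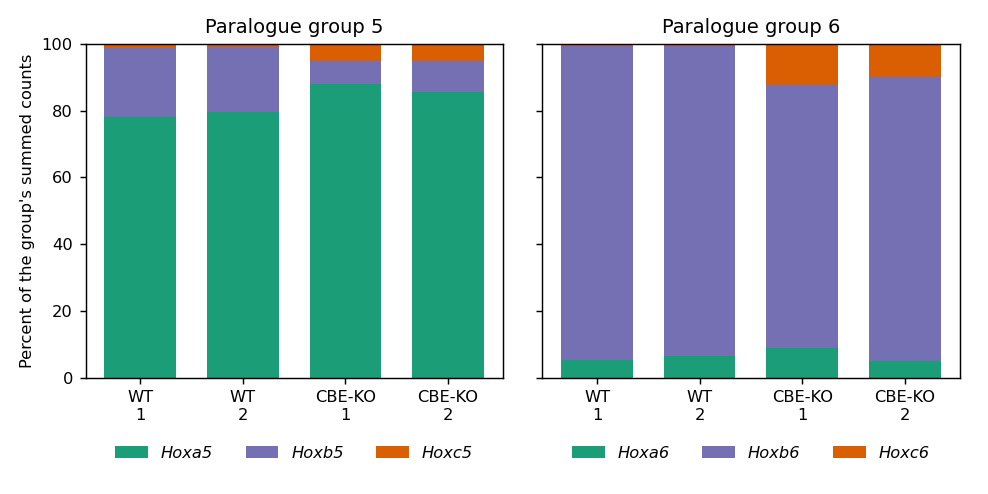
Percent of the summed counts of paralogue group 5 (left) and 6 (right) that came from the HoxA, HoxB and HoxC gene in each library. The HoxC part grows from 1.02% to 5.12% in group 5 and from 0.718% to 11.1% in group 6 (means of 2), and the HoxB part is smaller in CBE-KO in both.

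Neighbouring genes place these values within each cluster. In HoxA, the log2 fold changes of Hoxa3, Hoxa4, Hoxa5, Hoxa6 and Hoxa7 were 1.34, 0.95, 1.22, 0.87 and 1.51, and Hoxa6 was the 1 of these that did not pass. Hoxaas3, the noncoding gene over Hoxa5 and Hoxa6, had 30 and 26 counts in WT against 57 and 61 in CBE-KO, far fewer than Hoxa5 and more than Hoxa6. It rose by 0.96 ± 0.27 (SE; edgeR adjusted p = 0.00769), but not in DESeq2 (adjusted p = 0.0741) or without CBE-KO replicate 2 (0.0749). In HoxC, Hoxc4, Hoxc5, Hoxc6 and Hoxc8 rose by fitted log2 fold changes of 3.23, 3.37, 4.51 and 6.01. Hoxc8 had 0 and 1 counts in WT and was, like Hoxc5 and Hoxc6, tested only through CBE-KO; its fitted value was 5.12 without WT replicate 1 and 8.42 without WT replicate 2. Hoxc4 had 30 and 38 counts in WT against 366 and 331 in CBE-KO.

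In HoxB, the values for Hoxb4, Hoxb5, Hoxb6 and Hoxb7 were 0.26, -0.24, 0.47 and 0.89, of which all but Hoxb5 passed (Hoxb4 not in DESeq2, adjusted p = 0.0807). Hoxb5 was the 1 of 29 tested Hox genes, 7 of which were tested only through CBE-KO, with a log2 fold change below 0, under each scaling, filter and tool tried and with the replicate block. Without WT replicate 1, Hoxb2 and Hoxb3 were below 0 as well. Of the 10 tested genes of groups 1 to 4, out of 12, 6 rose and 0 fell (median 0.54). Of the 21 genes of groups 7 to 13, 13 were tested, 5 of them only through their CBE-KO libraries, so that these had to be higher there. Of the other 8, all above the expression filter in both WT libraries, 7 rose and 0 fell. Of all 14754 genes above it in both WT libraries 3043 rose, and 21.6% of all tested genes rose.

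**Figure D4:**
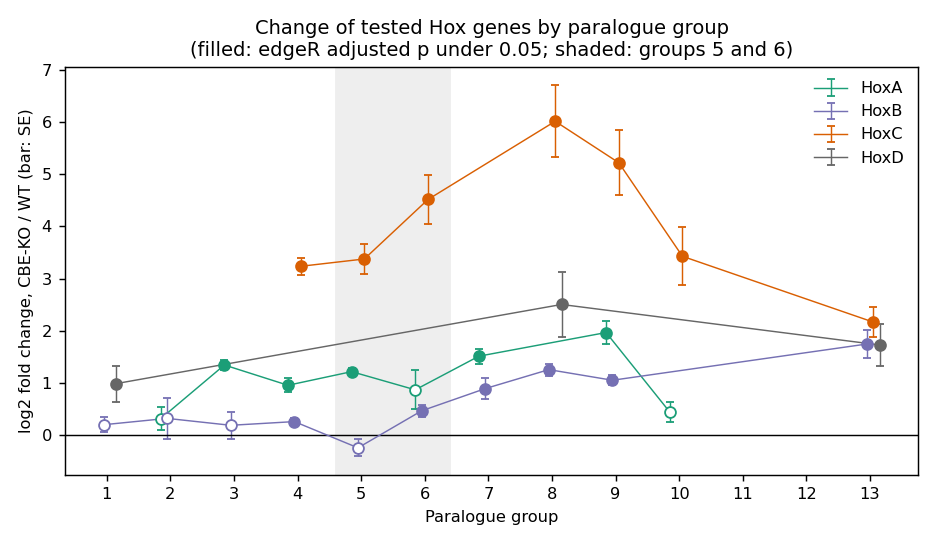
Log2 fold change of CBE-KO over WT with its SE (vertical axis) against paralogue group for 28 of the 29 tested Hox genes, coloured by cluster; filled points passed, and groups 5 and 6 are shaded. The HoxC points stand above the other clusters in the shaded groups, where both were tested only through CBE-KO, which favours a high value. The HoxB line dips to -0.24 at Hoxb5.

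Hox proteins of these groups bind DNA together with TALE homeodomain cofactors of the Pbx, Meis and Pknox families. All 9 cofactor genes were tested, and 5 rose, 1 fell and 3 did not pass (median log2 fold change 0.45). Of all tested genes 21.6% rose and 21.5% fell. The count of those that rose was 3 without CBE-KO replicate 1. Meis2 stood at 26.8 and 30.5 CPM in WT against 53.7 and 51.3 CPM in CBE-KO (0.88 ± 0.08, SE; edgeR adjusted p = 1.64e-07), and Meis1 rose by 0.78. Pbx2 fell by 0.29. Meis3, Pknox1 and Pknox2 had log2 fold changes of -0.23, -0.06 and -0.08, and both Pknox genes changed sign with library totals alone.

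Genes known to act upstream of trunk Hox genes were taken as another list. Of its 13 genes 11 were tested, and 5 rose, 3 fell and 3 did not pass (median 0.01), where 21.6% of all tested genes rose and 21.5% fell. Fgf8, 1 of those that rose, was tested only through CBE-KO. Cdx1, a caudal-type activator of Hox genes, stood at 122 and 143 CPM in WT against 158 and 173 CPM in CBE-KO (0.32 ± 0.07, SE; edgeR adjusted p = 0.000729), whereas Cdx2 (-0.63, adjusted p = 0.258) did not pass in edgeR and Cdx4 had 4 to 7 counts in every library. Among retinoic acid receptors, Rarb rose by 0.91 and Rara by 0.41, while Rarg fell by 0.68. Their partners Rxra and Rxrg fell by 0.32 and 1.29, and Rxrb, at 0.01, did not pass. Rxrg did not pass in DESeq2 (adjusted p = 0.109), nor without WT replicate 2, CBE-KO replicate 1 or CBE-KO replicate 2 (edgeR adjusted p = 0.109, 0.0848 and 0.0668). The signalling genes Gdf11 (0.54) and Fgf8 (1.42) rose in edgeR, while DESeq2 gave them an adjusted p of 0.184 and 0.207. Gdf11 did not pass without WT replicate 1 or CBE-KO replicate 1 (edgeR adjusted p = 0.351 and 0.159), nor did Fgf8 without WT replicate 1, WT replicate 2 or CBE-KO replicate 2 (0.0557, 0.245 and 0.418).

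Of 11 listed noncoding genes of the Hox clusters, 10 matched an identifier and 4 were tested. Hoxaas2 and Hoxaas3, 2 of the 4, rose and 0 fell, where 21.6% of all tested genes rose. Hoxb5os was tested only through CBE-KO. Mir196a-1, in HoxB, had 48 and 46 counts in WT against 75 and 63 in CBE-KO and did not pass (0.43, edgeR adjusted p = 0.134).

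Genes with the pattern most like each Hox gene were found by the Euclidean distance between log2 CPM profiles, each centred on its own mean, over the 4 libraries and 14594 candidate genes. For Hoxa5 the 2 nearest were Syne2 (distance 0.0394) and Kcnn3 (0.0487), with log2 fold changes of 1.21 and 1.23. For Hoxc5 they were S1pr1 (0.0511) and Fign (0.332), at 3.44 and 3.41. For Hoxc6 they were Xlr (0.126), with 6 counts in each WT library against 137 and 119 in CBE-KO, and Zfp521 (0.841), also on the neuroectoderm list, with 4 in each against 54 and 53. The distance from Hoxc6 to Zfp521 was the largest of the 12 given here. Hoxb5 was nearest to Ubtd1 (0.0360) and C87436 (0.0467), Hoxa6 to Gm26798 (0.0630) and Rph3al (0.0794), and Hoxb6 to Car7 (0.0262) and Tbc1d5 (0.0371). With 4 libraries such likeness describes these libraries and nothing more.

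**Figure D5:**
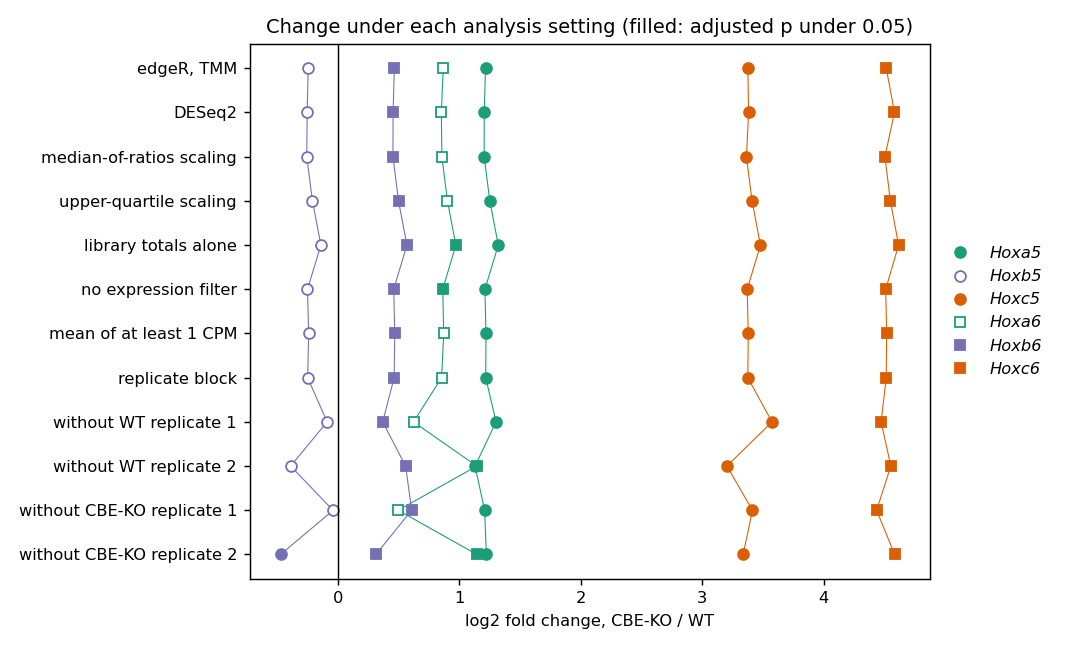
Log2 fold change of each gene (horizontal axis) under the edgeR fit with TMM scaling and 11 alternatives (vertical axis); filled points passed, circles are group 5 and squares group 6. Hoxa5, Hoxc5, Hoxb6 and Hoxc6 are filled throughout, while Hoxa6 and Hoxb5 change between open and filled.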

How the data were processed

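The authors deposited 1 table per library, holding unnormalized whole-number counts of reads for each Ensembl gene. Per the submitters' processing notes, the build was mm10 and the tools included HISAT2 2.1.0, HTSeq 0.9.1, DESeq2 1.18.1 and Bowtie2 2.3.1; counting options and annotation release are not given in the sources used here. The series has 10 samples, of which 4 RNA-seq libraries were used; 6 samples of Capture-C, a chromatin contact assay, were not analysed here. Groups and replicate numbers came from sample titles.

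Symbols were matched to 52403 of 52636 identifiers. Genes passing filterByExpr were tested across the whole table with edgeR 4.0.16 (R 4.3.3; glmQLFit, glmQLFTest, TMM scaling, two-sided, Benjamini-Hochberg adjustment over 16005 genes, threshold 0.05). Levels of genes in CPM are TMM-scaled, errors are SD over 2 libraries or SE, and intervals use 17.3 degrees of freedom. Of these, 15.3 come from variation pooled over all tested genes, not from a gene's own libraries. The edgeR SE was derived from the log2 fold change and its test statistic. DESeq2 gave a larger SE for each of the 6 Hox genes, such as 0.166 against 0.115 for Hoxb6. Ratios within libraries used log2 CPM with 0.5 counts added. Alternatives were DESeq2 1.42.0, other scalings and filters, the replicate block and leaving out each library; those for listed and other named genes were added after seeing the data. The named genes are the 6 Hox genes, listed genes and, for each Hox gene, the 2 nearest profiles with a mean of at least 1 CPM. Genes and lists were chosen with earlier results of these data known. Values of 2 listed genes are not reported here. The scripts were tested on simulated data. The replicates of each group differed beyond sampling noise (chi-square per degree of freedom 3.40 and 2.70), so each library counted as 1 replicate.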

Additional observations from a re-analysis of the deposited data

How the results depend on the processing

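The calls of Hoxa5, Hoxc5, Hoxb6 and Hoxc6 held under all 11 alternatives, and the number of the 6 genes that rose was 4 or 5. Hoxa6 passed with library totals alone (0.97) and without the expression filter (0.86). Leaving out 1 library gave log2 fold changes of 0.50 to 1.14 for Hoxa6 and -0.4703 to -0.0391 for Hoxb5, and 0 to 1 of the 6 genes fell; the remaining single library of a group is then assumed to vary like the other group. It also gave a change in the Hoxa6 share of -0.876 to 3.03 percentage points and in the log2 ratio of Hoxb6 to Hoxa6 of -0.83 to 0.10; the cause was not tested. Adding 2 counts moved the ratio changes to 1.95 for Hoxc5 over Hoxa5, 2.90 for Hoxc6 over Hoxa6, 3.22 for Hoxc6 over Hoxb6 and 0.51 for Hoxc6 over Hoxc5, as a larger addition pulls low counts together.

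DESeq2 called 2047 genes higher, against 3461 in edgeR; the cause was not tested. It called 3 upstream regulators and 1 noncoding gene higher, where edgeR called 5 and 2. Without 1 library, 3 to 5 TALE cofactors, 3 to 4 upstream regulators and 1 to 2 noncoding genes were higher. Of calls, 50.2% were higher with TMM scaling and 67.0% with library totals, where 4770 genes were higher and 2352 lower and the median over all genes was 0.11 on the log2 scale. Genes near 0 changed sign: Pknox1 and Pknox2 with library totals (0.0414 and 0.0203), Rxrb with DESeq2 (-0.0015) and median-of-ratios scaling (-0.0019), and, leaving out 1 library, Meis3 (-0.4329 to 0.016), Pknox2 (-0.1828 to 0.0126) and Rxrb (-0.057 to 0.0745).

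Fitting the replicate block gave log2 fold changes of 1.22 for Hoxa5, -0.25 for Hoxb5, 3.37 for Hoxc5, 0.85 for Hoxa6, 0.46 for Hoxb6 and 4.51 for Hoxc6; 3545 genes were higher and 3482 lower, and no call of the 6 genes changed. The labels do not say whether same-numbered libraries shared a culture or batch, and the correlation of their deviations was 0.0297. Depth leaves the WT level of Hoxc6, at 2 counts in each library, below the 3 counts treated as measurable.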
